A study of Mus musculus with 10 samples.

Results

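Chemokine and chemoattractant receptors are surface proteins through which a macrophage senses where to go. The 9 described here are the CC chemokine receptors Ccr1 and Ccr2, the atypical receptor Ccrl2, the fractalkine receptor Cx3cr1, the CXC chemokine receptor Cxcr4, the C5a receptor C5ar1, the formyl peptide receptors Fpr1 and Fpr2, and the chemerin receptor Cmklr1. They were taken by gene symbol from 46957 listed loci. All 9 were found, each in 1 locus, and all 9 were among the 12500 loci with enough fragments to be tested. The Fpr2 locus also lists Fpr3, so its values cover both genes and are given below as Fpr2/Fpr3.

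Most of these receptors span the membrane as G protein-coupled receptors. Binding of a chemokine, complement fragment or formylated peptide activates Gi proteins, whose beta-gamma subunits switch on phospholipase C and PI3-kinase gamma and so steer the cell, while receptor kinases, arrestins and RGS proteins end the signal. Ccr2 brings monocytes out of the bone marrow and into tumours, Cx3cr1 marks many tissue macrophages, and Cxcr4 holds cells where its ligand Cxcl12 is made.

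The cells came from mammary fat pad tumours of 4T1, a mouse mammary carcinoma line, in BALB/cJ mice. The vehicle group (5 samples) received PBS, and the JHU083 group (5 samples) received JHU083, a prodrug of the glutamine antagonist 6-diazo-5-oxo-L-norleucine, at 1 mg/kg on days 7 to 13. All tumours were taken on day 14, and live CD45+ CD11b+ F4/80+ cells without CD8, Ly6C or Ly6G were sorted for RNA sequencing. The labels do not say whether a sample is 1 mouse or a pool, so p-values measure the spread between these samples, and the comparison asks how receptor transcripts differ in macrophages from treated tumours.

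Libraries held 11147870 to 14575932 fragments in the vehicle group and 13638381 to 15740701 in the JHU083 group. All 8 macrophage markers (Adgre1, which encodes F4/80, Csf1r, Mertk, Fcgr1, Cd68, C1qa, Itgam, Ptprc) were detected in every sample. Their summed level was 8504 to 10291 CPM (fragments relative to the library total, scaled between samples by TMM) with vehicle and 10362 to 12506 CPM with JHU083, without overlap. Adgre1, Csf1r and Mertk rose among them and the other 5 did not pass the test. Of the genes behind the sort, Ly6g reached at most 2 fragments, Cd8a at most 6 and Ly6c2 at most 13 in any library, while Ly6c1 had 20 to 32 fragments with vehicle and 2 to 7 with JHU083 (log2 fold change -2.54, adjusted p = 6.9e-05). Summed markers of tumour epithelium were 264 to 557 CPM with vehicle and 94.8 to 195 CPM with JHU083, those of fibroblasts 72.9 to 165 and 17.3 to 81.3 CPM, and those of endothelium 125 to 213 and 36.9 to 88.1 CPM. Most of the endothelial sum was Pecam1, at 111 to 194 and 22.6 to 71.3 CPM; it fell, and Cdh5, Kdr and Vwf did not pass the test. In sorted bulk RNA, fewer cells of a type and less RNA per cell cannot be told apart.

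With JHU083, 4 receptors rose (Cxcr4, Cx3cr1, Ccrl2 and Ccr1), 1 fell (Fpr2/Fpr3), and 4 did not pass the test (Ccr2, C5ar1, Fpr1 and Cmklr1). The call is an adjusted p under 0.05 in edgeR's quasi-likelihood test with Benjamini-Hochberg adjustment over all 12500 loci. Of those loci 18.4% were called higher and 18.3% lower, 2296 and 2293 loci. With scaling by library size alone the split was 1564 higher and 3141 lower (12.5% and 25.1%), and the receptors' calls were 4 and 1 as before. The median log2 fold change was 0.16 over the 9 receptors and 0.01 over all loci tested. All 4 receptors that rose had every JHU083 sample above every vehicle sample. That held for 11.2% of all loci tested, and the opposite order for 11.1%.

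**Figure D1:**
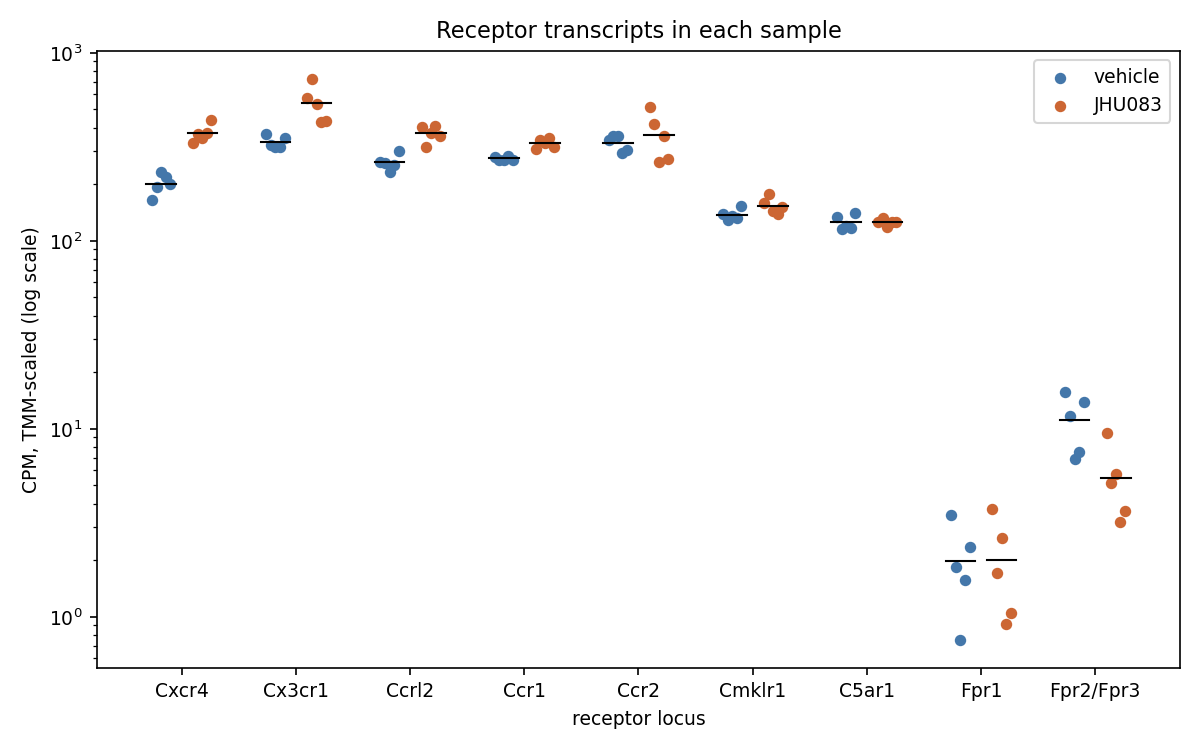
Level of each receptor locus in each sample, in CPM scaled by TMM on a log axis; points are samples (5 vehicle, 5 JHU083), bars are group means. The groups are apart for Cxcr4, Cx3cr1, Ccrl2 and Ccr1, and overlap for the other 5 loci.

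Cxcr4, the receptor for Cxcl12, had the largest increase of the 9. Its level was 164, 193, 231, 219 and 200 CPM in vehicle samples 1 to 5, and 330, 372, 352, 376 and 441 CPM in JHU083 samples 1 to 5. The lowest JHU083 sample lay well above the highest vehicle sample. The mean was 202 ± 25.7 CPM with vehicle and 374 ± 41.3 CPM with JHU083 (SD, n = 5 each), 1.86-fold higher. On the log2 scale the fitted change was 0.89 (SE 0.10, adjusted p = 1.83e-05). The exact two-sided permutation test gave p = 0.0079, the smallest it can give.

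Cx3cr1, the fractalkine receptor, rose with a wide spread between treated samples. Vehicle samples 1 to 5 had 369, 323, 315, 317 and 352 CPM. JHU083 samples 1 to 5 had 577, 727, 533, 429 and 434 CPM. JHU083 sample 2 was highest, samples 4 and 5 were lowest, and all were above the vehicle range. This was a log2 change of 0.69 (SE 0.13, adjusted p = 0.000852, exact permutation p = 0.0079), or 1.61-fold.

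Ccrl2 binds chemerin and is not known to signal through G proteins. It rose from 263, 259, 231, 253 and 302 CPM in vehicle samples 1 to 5 to 401, 313, 376, 409 and 361 CPM in JHU083 samples 1 to 5. The gap between the groups was narrow, at vehicle sample 5 and JHU083 sample 2. On the log2 scale it rose by 0.51 (SE 0.09, adjusted p = 0.000572, exact permutation p = 0.0079), or 1.42-fold.

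Ccr1, the receptor for Ccl3, Ccl5 and related chemokines, had the smallest increase of the 4. Vehicle samples 1 to 5 lay close together at 280, 270, 270, 283 and 270 CPM. JHU083 samples 1 to 5 had 307, 344, 332, 353 and 316 CPM, all above them. The mean was 20.3% higher, a log2 change of 0.27 (SE 0.06, adjusted p = 0.00429, exact permutation p = 0.0079). The summed macrophage markers, which also did not overlap between groups, had a log2 ratio of JHU083 to vehicle means of 0.26. The largest part of that sum was C1qa, at 4921 and 5462 CPM in the mean (0.15, adjusted p = 0.404). Single markers ranged from -0.21 (Fcgr1) to 0.97 (Mertk). The part of these markers in the receptors' rise was not tested.

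The fall of Fpr2/Fpr3 rested on a locus of 42 to 231 fragments per library. Fpr2 is a receptor for formylated peptides, annexin A1 and serum amyloid A. Vehicle samples 1 to 5 had 15.7, 11.7, 6.86, 7.56 and 13.9 CPM, and JHU083 samples 1 to 5 had 9.48, 5.14, 5.74, 3.21 and 3.67 CPM. JHU083 samples 2 to 5 were below every vehicle sample, while JHU083 sample 1 lay within the vehicle range. Its log2 change was -1.03 (SE 0.29, adjusted p = 0.0125, exact permutation p = 0.0317). In the 5 samples where a pair of ribosomal RNA loci is listed at 0 it was -0.54 and did not pass (adjusted p = 0.301). In GENCODE M21 the gene models of Fpr2 and Fpr3 overlap by 6101 bases, so the deposited values cannot split them. Neutrophils also carry formyl peptide receptors. S100a8 and S100a9, abundant neutrophil transcripts, summed to 18.5 to 27.6 CPM with vehicle and 2.40 to 10.7 CPM with JHU083. The whole list of 11 neutrophil markers summed to 93.2 to 104 CPM and 95.7 to 146 CPM, with its members going in both directions. Of the 5 tested, S100a8 and S100a9 fell, Csf3r, the largest part of the sum, rose from 58.4 to 84.5 CPM in the mean, and Retnlg and Cxcr2 did not pass. The part of these markers in the fall was not tested.

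Fpr1, the high-affinity formyl peptide receptor, was near the floor of detection with 10 to 55 fragments per library. Its level was 3.46, 1.83, 0.754, 1.56 and 2.35 CPM in vehicle samples 1 to 5 and 3.75, 1.71, 2.61, 0.917 and 1.05 CPM in JHU083 samples 1 to 5. The groups covered almost the same range. The log2 fold change was 0.00 with a 95% interval of -0.90 to 0.91 (adjusted p = 0.996), so changes within that interval could not be told from 0 in these samples.

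Within each group the samples fell in the same order for Fpr1 and Fpr2/Fpr3. In the vehicle group both were highest in sample 1, then 5, 2, 4 and 3. In the JHU083 group both were highest in sample 1, then 3, 2, 5 and 4. Cxcr4 ran nearly the opposite way, lowest in sample 1 of both groups. The log2 ratio of Fpr2/Fpr3 to Fpr1 fragments in the same sample needs no scaling between samples. It was 2.58 ± 0.40 (SD, n = 5, lowest 2.18) with vehicle and 1.53 ± 0.29 (SD, n = 5, highest 1.81) with JHU083. The groups were apart in this ratio, which was not tested.

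**Figure D2:**
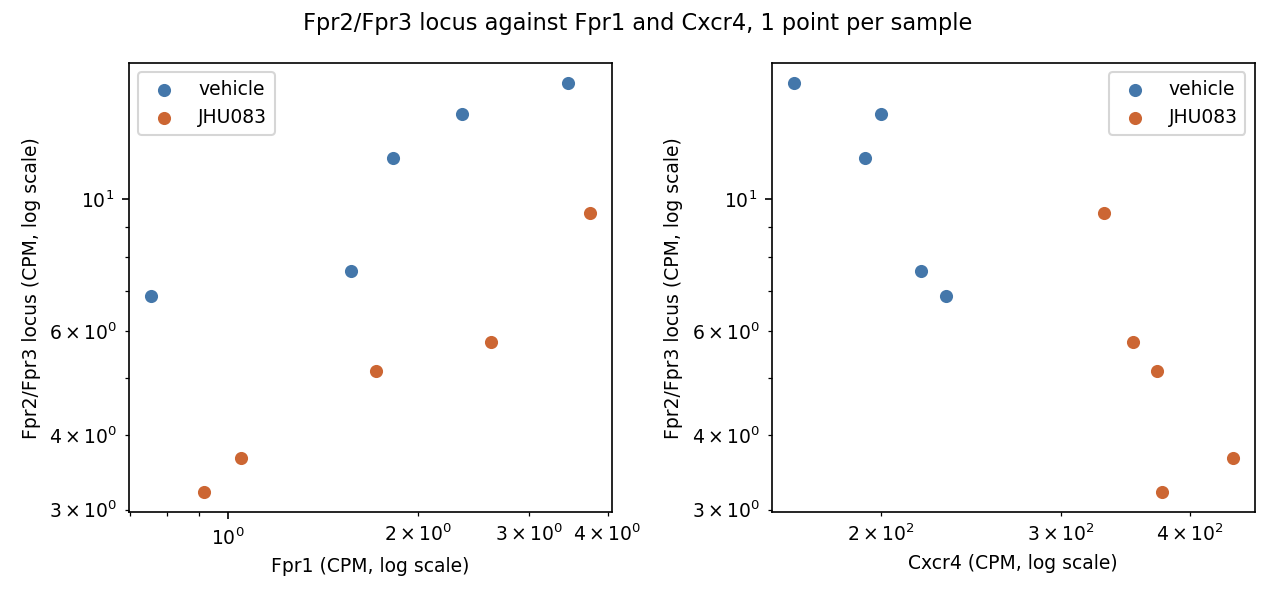
Level of the Fpr2/Fpr3 locus (CPM, log axis) against Fpr1 (left) and Cxcr4 (right), both in CPM on log axes, 1 point per sample (5 vehicle, 5 JHU083). Within each group Fpr2/Fpr3 is higher where Fpr1 is higher and mostly lower where Cxcr4 is higher; at a like Fpr1 level the JHU083 samples lie lower.

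Ccr2, which draws monocytes toward Ccl2, varied more between treated samples than between vehicle samples. Vehicle samples 1 to 5 had 342, 363, 361, 294 and 302 CPM. JHU083 samples 1 to 5 had 513, 418, 264, 362 and 273 CPM. JHU083 samples 1 and 2 were above every vehicle sample, and samples 3 and 5 were below every one. The SD was 32.5 CPM with vehicle and 104 CPM with JHU083 (n = 5 each), a difference in spread that was not tested. The log2 fold change was 0.14 with a 95% interval of -0.19 to 0.47 (adjusted p = 0.508, exact permutation p = 0.627), and it was -0.01 without JHU083 sample 1. Summed monocyte markers were 32.9 to 36.2 CPM with vehicle. In JHU083 samples 1 to 5 they were 18.8, 23.4, 32.2, 67.1 and 46.6 CPM. The markers of this list went in both directions: Ly6c1 and Vcan fell, Chil3 rose (3.82, 13.4, 22.6, 37.8 and 26.2 CPM in JHU083 samples 1 to 5), and Plac8 did not pass the test. The part of this list in the spread of Ccr2 was not tested.

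C5ar1, the receptor for the complement fragment C5a, did not pass the test. It had 133, 115, 120, 116 and 141 CPM in vehicle samples 1 to 5 and 126, 133, 119, 125 and 125 CPM in JHU083 samples 1 to 5. In CPM the JHU083 samples lay inside the vehicle range. Its log2 fold change was 0.00 with a 95% interval of -0.15 to 0.16 (adjusted p = 0.966, exact permutation p = 0.881).

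Cmklr1, the signalling chemerin receptor, had 139, 129, 136, 131 and 154 CPM in vehicle samples 1 to 5 and 159, 177, 143, 139 and 151 CPM in JHU083 samples 1 to 5. JHU083 samples 1 and 2 were above the vehicle range and the other 3 within it. Its log2 fold change was 0.16 with a 95% interval of -0.01 to 0.33 (adjusted p = 0.127, exact permutation p = 0.0714). On the deposited FPKM (fragments relative to transcript length and library total), limma gave Cmklr1 a log2 fold change of 0.27 (adjusted p = 0.0323). It gave C5ar1 0.16 (adjusted p = 0.0802), at 57.2 to 62.7 FPKM with vehicle and 60.7 to 72.5 FPKM with JHU083. Both are on the log2(FPKM + 1) scale, in a fit that differs in column, test and scaling at once. An antisense gene, Gm15736, overlaps Cmklr1, and the library kit does not mark strand, so their reads cannot be told apart.

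**Figure D3:**
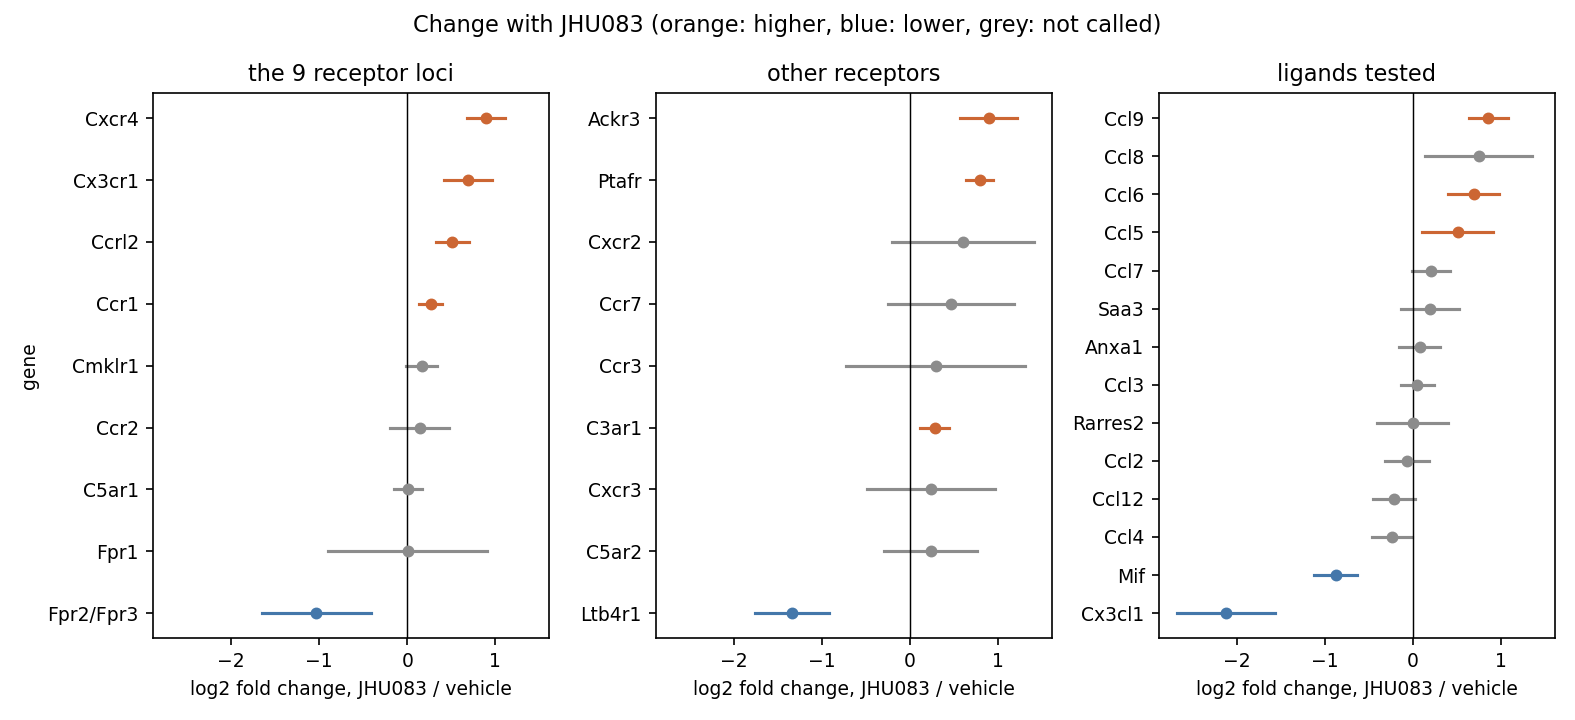
Log2 fold change, JHU083 over vehicle, with 95% intervals, for the 9 receptor loci, 9 of the 10 other receptors tested and the 14 ligands tested; orange is called higher, blue lower and grey not called (5 samples per group). Cxcr4 and Ackr3 share the largest receptor increase, 0.89, and Ltb4r1 and Fpr2/Fpr3 are the receptors that fell.

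Levels of different receptors were compared per transcript length, as deposited FPKM. With vehicle the order was Ccrl2 at 191 ± 13.4 FPKM, Cxcr4 at 148 ± 19.8, Ccr1 at 96.3 ± 1.84, Ccr2 at 92.4 ± 9.11, Cx3cr1 at 88.9 ± 5.15, Cmklr1 at 62.9 ± 4.60, C5ar1 at 59.2 ± 2.15, Fpr2/Fpr3 at 12.7 ± 4.55 and Fpr1 at 1.65 ± 0.83 (SD, n = 5). The samples of Ccr1 and Ccr2 overlapped, as did those of Ccr2 and Cx3cr1 and those of Cmklr1 and C5ar1, and the other neighbours were apart. With JHU083 Cx3cr1, at 151 ± 37.8 FPKM, came next, ahead of Ccr1 at 116 ± 6.66 and Ccr2 at 104 ± 31.1. Ccrl2 at 291 ± 37.4 and Cxcr4 at 289 ± 30.6 FPKM then overlapped, as did each pair of neighbours from Cx3cr1 down to C5ar1. Fpr2/Fpr3 at 6.12 ± 2.87 and Fpr1 at 1.67 ± 0.99 FPKM were again lowest. When CPM was divided by GENCODE exon length instead, Cxcr4 came first and Ccrl2 second in both groups, and C5ar1 lay above Cmklr1 in both groups. With vehicle Cx3cr1 then also lay above Ccr2. The order of these pairs depends on the length used.

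**Figure D4:**
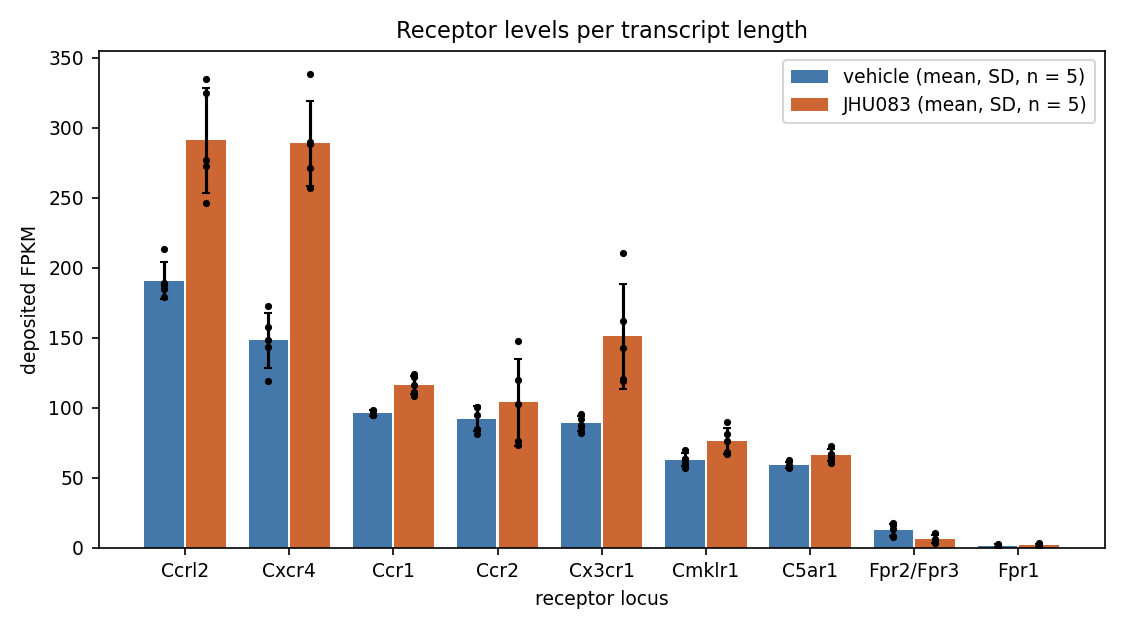
Deposited FPKM of each receptor locus by group (bars are means, error bars SD, dots the 5 samples of each group). Ccrl2 and Cxcr4 are highest in both groups, and Fpr2/Fpr3 and Fpr1 lowest.

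Ratios of paired receptors within a sample gave a view that does not rest on scaling. The log2 ratio of Ccr2 to Cx3cr1 fragments was -0.01 ± 0.18 with vehicle and -0.58 ± 0.36 with JHU083 (SD, n = 5), and the samples overlapped. The log2 ratio of Cmklr1 to Ccrl2, the signalling over the atypical chemerin receptor, was -0.92 ± 0.10 and -1.27 ± 0.27 (SD, n = 5), with overlap too. JHU083 sample 2, with the highest Cmklr1 and the lowest Ccrl2 of its group, was the sample inside the vehicle range of that second ratio.

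The receptors lie on 5 chromosomes in GRCm38. Cxcr4 is at chr1:128588199-128592299, Cmklr1 at chr5:113612355-113650475, C5ar1 at chr7:16246743-16259540, and Fpr1 and Fpr2 at chr17:17876471-17883939 and chr17:17887824-17893952. Ccrl2, Cx3cr1, Ccr1 and Ccr2 are on chromosome 9, at chr9:111054834-111057518, chr9:120048683-120068296, chr9:123962126-123968692 and chr9:124101918-124109140 (RefSeq, GRCm38.p6). Ccr3 lies between Ccr1 and Ccr2. Ccr3 was at 1.72 ± 1.09 and 2.12 ± 1.44 CPM (0.29, adjusted p = 0.659). Ccr9, Cxcr6, Xcr1 and Ccr1l1 had at most 15 fragments in any library and were not tested. Of these neighbours Ccr1 passed the test, and Ccr2 and Ccr3 did not. An antisense gene, Gm33858, overlaps Cx3cr1 in RefSeq, and without strand its reads cannot be told from those of Cx3cr1. The longer GENCODE M21 model of Cx3cr1 overlaps 9 genes, among them the protein-coding Wdr48, Gorasp1, Ttc21a, Csrnp1 and Xirp1, and how overlapping reads were counted is not given in the sources used here.

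The 250 bases before the start of the 3 receptors with the largest increases are shown for the motifs they hold, since each rose with JHU083. The windows are from RefSeq (GRCm38.p6), all on the minus strand, at chr1:128592300-128592549 for Cxcr4, chr9:120068297-120068546 for Cx3cr1 and chr9:111057519-111057768 for Ccrl2, where the outermost of 3 listed starts was used. Capitals mark any match on either strand to the hypoxia response core ACGTG, the ETS core AGGAAG, the AP-1 site TGANTCA, the kappaB form GGACTTTCC, the GC box GGGCGG or the TATA box TATAAA.
Cxcr4: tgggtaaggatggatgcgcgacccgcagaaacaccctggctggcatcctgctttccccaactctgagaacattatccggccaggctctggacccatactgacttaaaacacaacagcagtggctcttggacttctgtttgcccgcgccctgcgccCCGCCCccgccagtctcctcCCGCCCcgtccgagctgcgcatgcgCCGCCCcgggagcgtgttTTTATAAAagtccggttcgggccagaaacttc
Cx3cr1: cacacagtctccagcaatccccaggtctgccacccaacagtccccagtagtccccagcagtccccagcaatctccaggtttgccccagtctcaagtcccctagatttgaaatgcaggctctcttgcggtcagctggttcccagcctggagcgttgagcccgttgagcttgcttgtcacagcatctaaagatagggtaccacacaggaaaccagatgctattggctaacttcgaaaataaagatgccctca
Ccrl2: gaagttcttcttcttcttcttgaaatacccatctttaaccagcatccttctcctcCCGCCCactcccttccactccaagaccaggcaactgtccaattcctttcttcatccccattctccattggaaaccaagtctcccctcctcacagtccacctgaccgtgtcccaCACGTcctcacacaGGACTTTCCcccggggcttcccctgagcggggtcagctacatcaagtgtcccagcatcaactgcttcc
The Cxcr4 window held 3 GC boxes, at -95, -75 and -50 from the start, and TATA boxes at -32 and -30 that overlap on opposite strands. GC boxes were in 32.7% and TATA boxes in 12.4% of all 32851 windows of this length. The Ccrl2 window held a GC box at -195, the hypoxia core at -82 and the kappaB form at -68; these last 2 were in 16.6% and 0.283% of windows. The kappaB form was searched after the window had been read. The Cx3cr1 window held none of the 6 motifs, nor did those of Ccr1 and Ccr2, so no motif was shared by the 4 receptors that rose. A match is a description of letters and not of binding.

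Among ligands of these receptors, 14 of 17 listed genes were tested, of which 3 rose, 2 fell and 9 did not pass the test (median log2 fold change 0.06). These shares are near those over all loci, 18.4% higher and 18.3% lower. Ccl9 and Ccl6, ligands of Ccr1, rose with it. Ccl9 went from 339 ± 21.7 to 614 ± 99.0 CPM (0.86, adjusted p = 3.25e-05) and Ccl6 from 852 ± 66.3 to 1371 ± 299 CPM (0.69, adjusted p = 0.00132; SD, n = 5), and neither overlapped between groups. Ccl5, another ligand of Ccr1, was at 7.82 ± 1.17 and 11.1 ± 3.23 CPM and passed narrowly (0.51, adjusted p = 0.0494), and it lost its call in 15 of 23 other settings. Ccl3 and Ccl4 did not pass, with log2 fold changes of 0.05 and -0.24, and Ccl4 gained a lower call in 3 of 23 other settings.

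Cx3cl1, the membrane-bound ligand of Cx3cr1, fell while its receptor rose. It was at 4.31 to 10.4 CPM (mean 7.57 ± 2.65, SD, n = 5) with vehicle and 1.19 to 2.18 CPM (1.73 ± 0.38, SD, n = 5) with JHU083, without overlap. Its log2 change was -2.12 (SE 0.26, adjusted p = 3.78e-05). Endothelial and epithelial cells, which a CD45+ CD11b+ F4/80+ gate is meant to remove, are known sources of Cx3cl1. All 6 tumour epithelial markers tested and 1 of 4 endothelial markers, Pecam1, were called lower with JHU083, and their part in this fall was not tested. Mif, a cytokine that can bind Cxcr4, fell from 422 ± 52.9 to 229 ± 36.4 CPM (SD, n = 5; -0.88, adjusted p = 6.64e-05), also without overlap. Cxcl12 itself had 2 to 14 fragments per library and was not tested, nor were Hc, the gene of C5, and Camp, each at 0 to 3 fragments.

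Ligands of Ccr2 did not pass the test. Ccl8 came nearest, at 367 ± 137 CPM with vehicle and 616 ± 227 CPM with JHU083 (SD, n = 5; 0.75, adjusted p = 0.0521), and its samples overlapped. It gained a call in 6 of 23 other settings, and its log2 fold change ranged from 0.20 to 1.08 across the 23. Ccl12 gained a lower call in 3 (range -0.40 to -0.0056) and Ccl7 a higher call in 1 (range 0.098 to 0.34). The log2 fold change was -0.07 for Ccl2, 0.20 for Ccl7 and -0.22 for Ccl12. Nor did the ligands of the chemerin and formyl peptide receptors: it was -0.01 for Rarres2, which encodes chemerin, 0.08 for Anxa1 and 0.20 for Saa3.

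Of 30 loci of other chemoattractant receptors, 10 had enough fragments to be tested, of which 3 rose, 1 fell and 6 did not pass (median log2 fold change 0.28), beside 18.4% and 18.3% of all loci called higher and lower. Ackr3, an atypical receptor that takes up Cxcl12, rose with Cxcr4, from 16.0 to 22.2 CPM in vehicle samples to 25.0 to 45.9 CPM in JHU083 samples (0.89, SE 0.15, adjusted p = 0.000488). Ptafr, the receptor for platelet-activating factor, rose from 76.1 ± 2.77 to 132 ± 10.6 CPM (SD, n = 5; 0.79, adjusted p = 4.81e-06). C3ar1, the receptor for the complement fragment C3a, rose from 306 ± 17.5 to 371 ± 35.5 CPM (SD, n = 5; 0.28, adjusted p = 0.0111), with overlapping samples, and it lost its call in 3 of 23 other settings. Ltb4r1, the leukotriene B4 receptor, fell from 16.9 to 21.3 CPM in vehicle samples to 5.52 to 13.2 CPM in JHU083 samples (-1.34, SE 0.20, adjusted p = 0.000174). The formyl peptide receptor relatives Fpr-rs3 and Fpr-rs4 had 0 fragments in every library.

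Genes of receptor signalling were tested at 36 loci, of which 10 rose, 3 fell and 23 did not pass (median log2 fold change 0.08), beside 18.4% and 18.3% of all loci. The largest increases were Rgs18, an inhibitor of G protein signalling, at 1.68 ± 0.49 and 3.29 ± 1.39 CPM (0.97, adjusted p = 0.0270), Pik3r5, a regulatory subunit of PI3-kinase gamma, at 47.9 ± 2.95 and 78.5 ± 7.29 CPM (0.71, adjusted p = 2.33e-05), and the G protein subunit Gng12 at 54.9 ± 8.21 and 88.9 ± 4.84 CPM (0.70, adjusted p = 0.000102; SD, n = 5). The decreases included Rgs16, another inhibitor, at 2.97 to 8.38 CPM with vehicle and 0.596 to 1.70 CPM with JHU083 (-2.16, adjusted p = 0.000228) and the kinase Ptk2b at 119 ± 16.7 and 95.3 ± 10.8 CPM (-0.32, adjusted p = 0.0289; SD, n = 5). Rgs18 and Ptk2b each lost their call in 8 of 23 other settings. By role, 4 of 7 RGS genes rose and 1 fell, beside the same 18.4% and 18.3% of all loci. Besides Rgs18, those that rose were Rgs1, Rgs2 and Rgs10, with log2 fold changes of 0.64, 0.53 and 0.41, named after their values had been seen. Of the 6 arrestin and receptor kinase genes, edgeR called 0 (1 had an unadjusted p under 0.05), DESeq2 0 and limma-voom 0. Of the G protein subunits 2 of 7 rose, of the phospholipase C and PI3-kinase gamma genes 1 of 5 rose, and of the migration genes 3 of 11 rose and 2 fell.

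For each receptor that passed the test, the loci with the most similar pattern over the 10 samples were found among more abundant single-gene loci, by Pearson's r of log2 CPM. For Cxcr4 these were Slc17a5 (r = 0.99, and 0.93 after group means were subtracted) and Cd84 (0.99 and 0.90). For Cx3cr1 they were Acox3 (0.96 and 0.86) and Tgfbrap1 (0.96 and 0.86). For Ccrl2 they were Eepd1 (0.97 and 0.83) and Lmo4 (0.97 and 0.87). For Ccr1 they were Dcaf8 (0.99 and 0.92) and Fkbp5 (0.97 and 0.82). For Fpr2/Fpr3 they were Slc35a4 (0.97 and 0.94) and Ighm (0.96 and 0.92). These are the highest of about 4712 values each and share the treatment difference, so they are a description with no test.

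Samples also differed in whether the ribosomal RNA loci Rn18s-rs5 and Gm42418 were listed at 0 (vehicle samples 2, 4 and 5 and JHU083 samples 1 and 3) or above 0, with 2.87% to 5.59% of fragments. Among samples with these loci at 0, Cxcr4 rose by 0.75 (adjusted p = 0.00618), Cx3cr1 by 0.75 (adjusted p = 0.00599) and Ccrl2 by 0.52 (adjusted p = 0.0289) on the log2 scale. Among the others, Cxcr4 rose by 0.99 (adjusted p = 0.00173) and Ccrl2 by 0.54 (adjusted p = 0.0184), and Cx3cr1 had 0.62 (adjusted p = 0.0538). Ccr1 had 0.22 and 0.29 and passed in neither set (adjusted p = 0.234 and 0.0958). Fpr2/Fpr3 had -0.54 in the first set (adjusted p = 0.301) and -1.50 in the second (adjusted p = 0.00873). Fpr1 had 0.73 and -0.80 and passed in neither (adjusted p = 0.233 and 0.330); the difference between sets was not tested. Of all loci, 4.18% were called higher and 4.61% lower in the first set, and 9.86% and 11.9% in the second.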

How the data were processed

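RNA from the 10 samples was made into poly(A), paired-end libraries, per the labels' protocols. Per the submitters' processing notes the tools were bcl2fastq 2.17.1.14, FastQC 0.11.2 and TopHat2 2.1.1, with the build GRCm38; the counting program and annotation are not given in the sources used here. The authors deposited 2 columns per sample. The first, headed as raw counts per the file headers, holds expected counts, nearly all of them whole multiples of a step of 0.888 to 1.17 per sample. Dividing by the step gave whole fragments for 99.78% to 99.96% of values (tolerance 0.05), and these were tested. The second, which the authors headed as normalized, holds FPKM to judge from its values, and was used to compare receptors.

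Of 46957 loci, 1060 list more than 1 symbol (12.7% of fragments), and 1 without a symbol was left out. Loci were filtered with filterByExpr, scaled by TMM and tested with edgeR 4.0.16 (quasi-likelihood, no covariate, Benjamini-Hochberg over 12500 loci). Single genes were also tested by an exact permutation of log2 CPM (prior count 2). On simulated counts with 200 of 12500 loci changed, the test recovered 43.5% at a log2 change of 0.5 and 88.5% at 1. Many more loci were called in the data (2296 higher and 2293 lower), so this simulation does not measure the recovery there. Depth limits the precision: 3 fragments equal 0.191 to 0.269 CPM on unscaled library totals, counting error only.

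The receptors, the gene lists and the motifs were chosen with earlier results of these data known. Named genes are the 9 receptors, ligands that passed the filter, the receptors of the chromosome 9 cluster, the 3 largest called changes per direction among other receptors and among signalling genes, and the 2 most similar loci for each called receptor (average log2 CPM of at least 5); genes of these lists that are not named are not reported here. Alternatives were other scalings and filters, DESeq2 1.42.0, limma-voom (limma 3.58.1), rounded deposited values, subsets of samples and a replicate block, and, added after seeing the data, limma on log2(FPKM + 1).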

Additional observations from a re-analysis of the deposited data

How the results depend on the processing

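Across 23 other settings, the calls of Cxcr4 and Ccrl2 held in every one, those of Cx3cr1 and Fpr2/Fpr3 in 22 and that of Ccr1 in 21. The calls that were lost were lost in the sets of samples split by the ribosomal RNA loci, which hold fewer samples. With these loci above 0 the log2 fold change was 0.62 for Cx3cr1 and 0.29 for Ccr1, 2 receptors were called higher, and 1276 loci were called higher in all. With them at 0 it was 0.22 for Ccr1 and -0.54 for Fpr2/Fpr3, 0 receptors were called lower, and 532 and 586 loci were called higher and lower. On FPKM, Cmklr1 gained a call at 0.27, and C5ar1 was 0.16 without a call. Leaving out each sample in turn gave 1821 to 2899 loci higher and 1900 to 2930 lower, with the receptors at 4 and 1 each time. Same-numbered samples did not deviate together (correlations -0.57 to 0.09), which cannot show whether the numbers pair mice, and the labels do not say. The replicate block called 1612 loci higher and 1757 lower, again with 4 and 1 receptors, and gave Fpr1 -0.026.

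Values near 0 changed sign, none of them called. Fpr1 was -0.80 with the loci above 0, -0.072 by library size, -0.042 by limma-voom, -0.023 by upper quartile, -0.010 with rounded values, -0.0066 on FPKM, -0.0028 under the stricter filter, -0.0017 without a filter and -0.00060 with DESeq2 size factors; leaving out single samples gave -0.35 to 0.31. C5ar1 was -0.073 by library size, -0.021 by upper quartile, -0.020 with the loci at 0 and -0.00027 under the stricter filter; single samples gave -0.027 to 0.049. With the loci at 0, Ccl2 was 0.19 and Ccr3 -0.051; with them above 0, Ccr2 was -0.012, Ccl3 -0.046 and Rarres2 0.39. By library size Ccl3 was -0.035 and Anxa1 -0.0081. Single samples gave -0.014 to 0.24 for Ccr2 (lowest without JHU083 sample 1), -0.17 to 0.65 for Ccr3 (lowest without JHU083 sample 4), -0.20 to 0.0033 for Ccl2 and -0.11 to 0.082 for Rarres2. The cause of these shifts was not tested. Fpr1, with 10 to 55 fragments per library, and Ccr3, with 7 to 59, rest on few fragments.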

Other observations

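Summed eosinophil markers were 3.68 to 10.6 CPM with vehicle and 6.64 to 17.5 CPM with JHU083, and dendritic cell markers had medians of 13.3 and 17.2 CPM. Summed T and NK cell markers were 26.5 to 29.0 CPM and 36.2 to 53.2 CPM, without overlap; Cd4 rose among them, from a mean of 14.7 to 31.8 CPM, Klrb1c did not pass the test (11.9 and 9.13 CPM), and Cd3e, Cd3d, Cd8a and Ncr1 were too low to be tested. Of the genes tested, 1 of 3 eosinophil markers (Siglecf) and 1 of 6 dendritic cell markers (Cd209a) were called higher. JHU083 sample 4 was highest for the eosinophil and dendritic cell sums, and also for monocyte markers (67.1 CPM) and Ccr3 (4.51 CPM). In 18 sets of 5 values, 1 for each receptor and group, no sample lay far from the rest by Dixon's rule (critical value 0.71); chance would give about 0.9.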
